A study of Mus musculus with 10 samples.

Results

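The 10 genes described here build the skeleton of the cell, of the red cell membrane and of the nucleus: Vim, Lmna, Lmnb1, Actb, Actg1, Myh9, Ank1, Add1, Add2 and Tmod1. They were chosen by name, as 10 of the 23309 genes in the deposited RNA table, together with every peak that the authors assigned to them by nearest transcription start site in a KLF3 and a KLF1 peak list. All 10 were among the 9619 genes the authors tested. They held 19 of the 4579 KLF3 peaks and 22 of the 3800 KLF1 peaks.

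Newly made RNA was captured from 3 libraries of J2E-KLF3-ER cells and 3 libraries of J2E cells by labelling with 500 µM 4-thiouridine (4sU) for 30 minutes. J2E is an immortalised mouse erythroid line of fetal liver origin. J2E-KLF3-ER cells carry in addition KLF3, a repressor of the Krüppel-like family, fused to an estrogen receptor domain that tamoxifen switches on, and their libraries came from the single clones A, C and E. The J2E-KLF3-ER libraries and 2 J2E libraries were from cells given 200 nM 4-hydroxytamoxifen, while the third J2E library was from cells given ethanol; no J2E-KLF3-ER library without tamoxifen was in the comparison, so the active transgene and the derivation of the clones cannot be told apart. KLF3 binding was mapped with an estrogen receptor antibody in clone C after 3 hours of induction. KLF1 binding was mapped with a KLF1 antibody in K1-ER cells, which are erythroblasts lacking Klf1 that carry an inducible KLF1-ER fusion, clones A and C, also after 3 hours. Each chromatin library, with its input library, was made from 3 pooled replicates. Between the 2 peak lists the factor, the cells and the antibody all differ.

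The authors' deposited table gives 1 pooled level per group in FPKM, which scales fragments by library size and by transcript length, so a level can be set against that of another gene. No value per library, no total count and no spread between libraries came with it. A level, and a gene named as more or less abundant by it, refers to this labelled RNA and not to all RNA of the cell. Klf3 was at 180 FPKM in J2E-KLF3-ER and 7.46 FPKM in J2E, in the direction of the transgene. Of 12 erythroid marker names, 10 had a row in the table, with a summed level of 413 FPKM in J2E-KLF3-ER and 595 FPKM in J2E. Of these markers 3 fell in the authors' deposited table, namely Klf1, the erythropoietin receptor gene Epor and the band 3 gene Slc4a1. The other erythroid markers were not called. Among them only Alas2 had a positive log2 fold change (0.58, q = 0.262 in the authors' deposited table). The globin gene Hbb-b2, also not called, was at 0.00488 FPKM in J2E-KLF3-ER and 12.4 FPKM in J2E. Its log2 fold change was -11.3, with q = 0.647 in the authors' deposited table. In bulk RNA of this kind, fewer cells of a type and less RNA per cell cannot be told apart.

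Vimentin is the intermediate filament protein of mesenchymal and many blood cells, and in mammals it is lost as erythroid cells mature. Lamins form a second filament network under the nuclear envelope, with A-type lamins (Lmna) typical of differentiated cells and B-type lamins (Lmnb1) present in nearly all cells. Actin filaments and non-muscle myosin (Myh9) give the cell its cortex and contractile force. In the red cell, short actin filaments are knotted into a spectrin net that ankyrin (Ank1) ties to band 3 in the membrane, that adducin (Add1, Add2) caps at the fast-growing filament end, and that tropomodulin (Tmod1) caps at the slow-growing end. KLF1, the main erythroid activator of the Krüppel-like family, and KLF3 both recognise CACCC-type boxes, often written CCNCNCCC.

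The promoter sequences of Vim, Lmna, Myh9 and Add1 are shown because Vim and Lmna were the members whose RNA fell, while Myh9 and Add1 had the strongest promoter peaks of both factors. Each is the 250 bases before the start, 5′ to 3′ on the gene's strand, from RefSeq on GRCm38.p6, with CCNCNCCC in either orientation, overlapping matches joined, in capitals. The windows are chr2:13574061-13574310 (plus strand) for Vim, chr3:88503353-88503602 (minus strand) for the upstream start of Lmna, chr15:77842176-77842425 (minus strand) for Myh9 and chr5:34573414-34573663 (plus strand) for Add1.
Vim: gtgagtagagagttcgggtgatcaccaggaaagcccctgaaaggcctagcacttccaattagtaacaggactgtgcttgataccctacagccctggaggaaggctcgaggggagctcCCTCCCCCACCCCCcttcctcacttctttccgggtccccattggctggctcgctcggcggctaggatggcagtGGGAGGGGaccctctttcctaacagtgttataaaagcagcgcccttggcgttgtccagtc
Lmna: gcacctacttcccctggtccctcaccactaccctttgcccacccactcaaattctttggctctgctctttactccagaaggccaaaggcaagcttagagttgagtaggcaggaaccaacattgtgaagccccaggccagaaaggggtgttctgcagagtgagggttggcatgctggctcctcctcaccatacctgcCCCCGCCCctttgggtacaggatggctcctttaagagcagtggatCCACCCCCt
Myh9: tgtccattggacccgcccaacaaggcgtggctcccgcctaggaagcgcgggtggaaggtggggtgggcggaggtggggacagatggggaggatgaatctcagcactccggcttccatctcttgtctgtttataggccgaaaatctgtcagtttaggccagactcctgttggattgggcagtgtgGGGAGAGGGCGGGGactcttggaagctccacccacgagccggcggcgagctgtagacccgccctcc
Add1: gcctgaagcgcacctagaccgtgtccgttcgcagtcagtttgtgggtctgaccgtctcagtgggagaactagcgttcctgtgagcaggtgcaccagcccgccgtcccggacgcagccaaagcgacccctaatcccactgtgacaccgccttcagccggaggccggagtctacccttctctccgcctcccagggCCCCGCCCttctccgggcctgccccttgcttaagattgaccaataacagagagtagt

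Of the 10 genes 7 had such a window, Lmna with 2, and 7 of these 8 windows held CCNCNCCC, beside 45.9% of 32851 windows over the genome; the shorter CACCC, which overlaps it in part and was also searched on both strands, was in 6 of the 8 windows, beside 52.0%. The window without CCNCNCCC was that of an inner Lmna start (chr3:88493313-88493562, minus strand). On mm9 the strongest Lmna peaks of both factors were assigned to an inner start, with summits downstream of it and so outside such a window. The windows without CACCC were those of Add1 and Actg1, so 1 of the 2 genes with the strongest promoter peaks held no CACCC in these letters. In Vim the matches began at -133, -129 and -127, running into one another, and at -60. In Myh9 a joined pair began at -66 and -60. In Add1 the single match began at -57, and in the Lmna window matches began at -54 and -9. A match is a description of letters and not of binding.

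The peaks were placed on mm9 and the windows on GRCm38.p6, so positions can be set side by side only as distances from the start, and the starts may differ between builds. The span of Vim is 8516 bp in both. That of Myh9 is 64 bp shorter and that of Add1 53 bp shorter in the mm9 table than in RefSeq, at an end that the spans do not give. The annotated spans differ far more at Lmna, with 22184 bp in the mm9 table and 28785 bp in RefSeq, again at an end not given. With that limit, the summits at Myh9 (-45 for KLF3, -89 for KLF1) and at Add1 (-50 and -64) lay on either side of the capitals at Myh9, and at the edge of and just upstream of them at Add1, while neither Vim summit of KLF3 (-703 and -369) nor that of KLF1 (+750) fell inside the window shown.

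**Figure D1:**
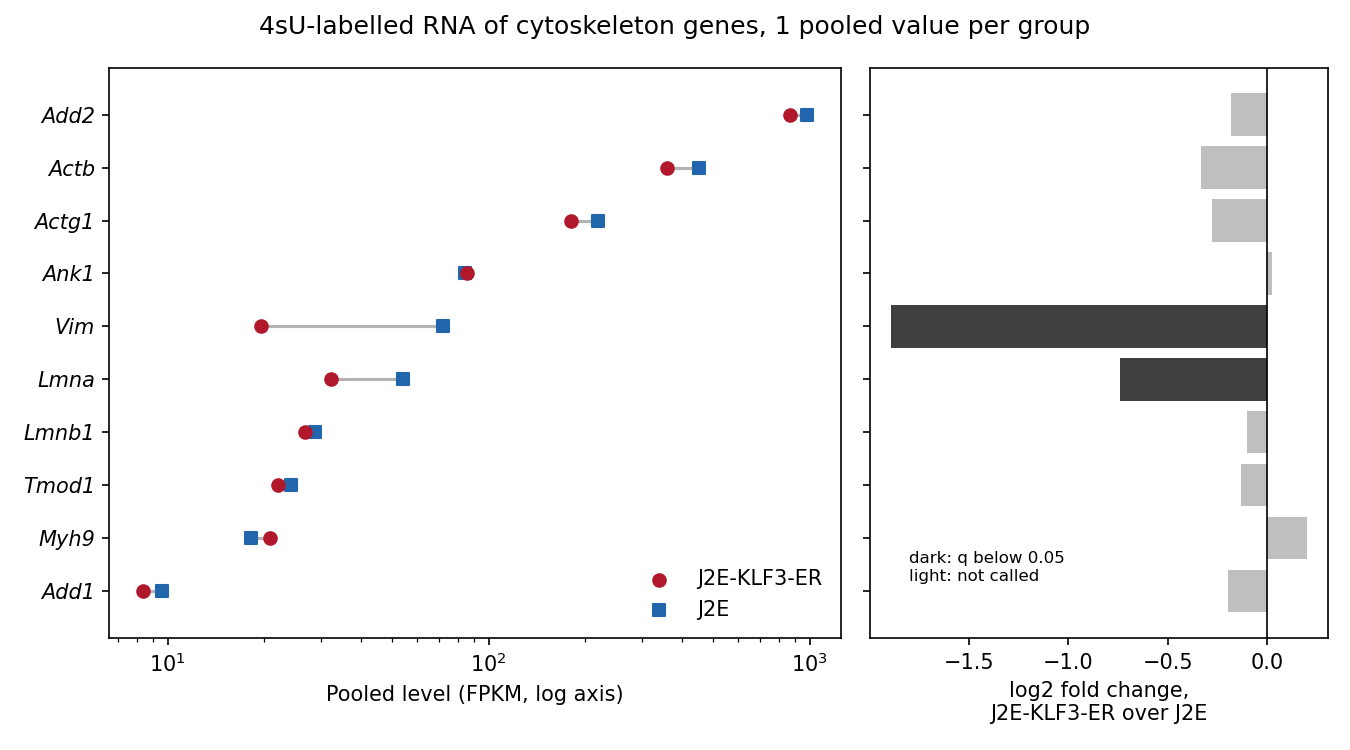
Left, pooled level of 4sU-labelled RNA of each gene (FPKM, log axis) in J2E-KLF3-ER (circles) and J2E (squares), 1 value per group; right, the authors' log2 fold change, J2E-KLF3-ER over J2E, with dark bars for genes at a q-value below 0.05. Vim and Lmna are the 2 dark bars, and the other 8 genes lie between -0.33 and 0.20.

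Vim and Lmna fell in J2E-KLF3-ER, and the other 8 genes were not called in either direction. A gene is called where its q-value in the authors' deposited table is below 0.05. Falling genes made up 1.90% of all tested genes and rising genes 0.821%, so 2 of 10 falling and 0 of 10 rising stand beside those shares. The 10 genes were chosen with earlier results of these data known, so these counts are a description. The log2 fold changes of the 10 genes had a median of -0.19 in the authors' deposited table, with 8 below 0 and 2 above, against a median of 0.03 over all tested genes, of which 4479 lay below 0 and 5140 above.

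Vim (chr2:13495938-13504453, mm9, plus strand) had a level of 19.5 FPKM in J2E-KLF3-ER, against 72.3 FPKM in J2E. The authors' deposited table gives a log2 fold change of -1.89, a 3.71-fold lower level in J2E-KLF3-ER, with p = 5e-05 and q = 0.00408. That p is the smallest in the table and is shared by 118 genes. Ordered from the highest level down, Vim stood at place 3195 of 9619 in J2E-KLF3-ER and at place 552 in J2E. Its log2 fold change was the 69th lowest of the tested genes.

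Vimentin is also abundant in stromal and other non-erythroid cells, whose markers are therefore set beside it. The 7 fibroblast and stroma markers summed to 17.6 FPKM in J2E-KLF3-ER and 36.6 FPKM in J2E, and Lum, which encodes the matrix proteoglycan lumican, accounted for most of both sums, at 11.8 FPKM in J2E-KLF3-ER and 28.0 FPKM in J2E (q = 0.00408 in the authors' deposited table). Pdgfrb was at 3.02 FPKM in J2E-KLF3-ER and 4.60 FPKM in J2E (log2 fold change -0.61, p = 0.0126, q = 0.161 in the authors' deposited table). Col3a1 was at 2.59 FPKM in J2E-KLF3-ER and 3.75 FPKM in J2E (log2 fold change -0.53, p = 0.038, q = 0.281 in the authors' deposited table). The 3 tested stroma markers thus all had negative log2 fold changes, as Vim had, and 1 of them was called. The other 4, Col1a1, Col1a2, Dcn and Pdgfra, were each below 0.1 FPKM in both groups and were not tested. The 8 macrophage and neutrophil markers summed to 28.0 FPKM in J2E-KLF3-ER and 35.0 FPKM in J2E, of which the macrophage receptor gene Csf1r gave 18.5 FPKM in J2E-KLF3-ER and 23.2 FPKM in J2E, and none of the list was called. The 6 megakaryocyte markers summed to 188 FPKM in J2E-KLF3-ER and 167 FPKM in J2E, again with none called. Endothelial markers summed to 2.26 FPKM in J2E-KLF3-ER and 2.16 FPKM in J2E, lymphoid markers to 0.68 FPKM in J2E-KLF3-ER and 0.73 FPKM in J2E, and mast cell markers to 0.23 FPKM in J2E-KLF3-ER and 0.02 FPKM in J2E. Cd2, Ptprc and Mcpt8 were listed at 0 in both groups. The part of any of these cells or genes in the fall of Vim was not tested.

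The tested genes whose pair of levels lay nearest to that of Vim, by distance on the log2 scale over the 2 pooled values, were Kcnn4, Eif4ebp1 and Samd1. Kcnn4, the calcium-activated potassium channel of the red cell, was at 19.5 FPKM in J2E-KLF3-ER and 53.6 FPKM in J2E, a distance of 0.43. Eif4ebp1, an inhibitor of cap-dependent translation, was at 22.9 FPKM in J2E-KLF3-ER and 53.8 FPKM in J2E, a distance of 0.49. Samd1 was at 27.6 FPKM in J2E-KLF3-ER and 58.6 FPKM in J2E, a distance of 0.59. All 3 also fell in the authors' deposited table, which the measure of likeness makes likely by itself.

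Lmna (chr3:88285071-88307254, minus strand), which encodes lamins A and C, had a level of 32.4 FPKM in J2E-KLF3-ER, against 54.1 FPKM in J2E. The authors' deposited table gives a log2 fold change of -0.74, a 1.67-fold lower level, with p = 0.00025 and q = 0.0148. The call of Lmna, unlike that of Vim, was lost at a q threshold of 0.01, with at least a 2-fold change required, and with the Benjamini-Yekutieli adjustment, where its q was 0.145. Lmnb1 (chr18:56867467-56913079, plus strand), which encodes lamin B1, had a level of 26.9 FPKM in J2E-KLF3-ER and 28.8 FPKM in J2E, with a log2 fold change of -0.10 and q = 0.857 in the authors' deposited table. Lmnb2, the other B-type lamin gene, was tested in the wider list. It was at 11.0 FPKM in J2E-KLF3-ER and 9.21 FPKM in J2E (log2 fold change 0.25, q = 0.616 in the authors' deposited table). The A-type lamin gene was thus called and neither B-type gene was. Whether their changes differ was not tested, since the table has no value per library.

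Actb (chr5:143664795-143668403, minus strand), which encodes beta-actin, had a level of 360 FPKM in J2E-KLF3-ER and 453 FPKM in J2E, with a log2 fold change of -0.33, p = 0.029 and q = 0.249 in the authors' deposited table. Actg1 (chr11:120207004-120209798, minus strand), which encodes gamma-actin, had a level of 181 FPKM in J2E-KLF3-ER and 220 FPKM in J2E, with a log2 fold change of -0.28 and q = 0.374 in the authors' deposited table. Neither cytoplasmic actin gene passed the test; their sequences are close to each other and to processed pseudogenes, so the split of reads between copies is uncertain. Myh9 (chr15:77591019-77672545, minus strand), the heavy chain of non-muscle myosin IIA, had a level of 20.8 FPKM in J2E-KLF3-ER and 18.1 FPKM in J2E, with a log2 fold change of 0.20 and q = 0.608 in the authors' deposited table. Myh9 had the highest log2 fold change of the 10 genes.

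The 4 membrane skeleton genes spanned the widest range of levels and none was called. Add2, the adducin beta gene, was the most abundant of the 10, at 869 FPKM in J2E-KLF3-ER (place 27 of 9619) and 984 FPKM in J2E (place 23); the authors' deposited table gives a log2 fold change of -0.18 and q = 0.709 (chr6:85978675-86074403, plus strand). Add1, the adducin alpha gene, was the least abundant, at 8.36 FPKM in J2E-KLF3-ER and 9.59 FPKM in J2E, with a log2 fold change of -0.20 and q = 0.705 in the authors' deposited table (chr5:34916363-34974954, plus strand). The subunits of one filament cap thus differed widely in pooled level per length in both groups, with Add2 high and Add1 low.

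Ank1 (chr8:24085354-24260968, plus strand) had a level of 85.8 FPKM in J2E-KLF3-ER and 84.5 FPKM in J2E, with a log2 fold change of 0.02, p = 0.884 and q = 0.968 in the authors' deposited table. Tmod1 (chr4:46052094-46151347, plus strand) had a level of 22.1 FPKM in J2E-KLF3-ER and 24.2 FPKM in J2E, with a log2 fold change of -0.13 and q = 0.893 in the authors' deposited table. Neither filament anchor nor cap thus passed the test, though without an error no interval can be put on how far they may have moved. The table gives the span of Ank1 to the small RNA genes Mir486 and Mir3107 too, with Mir486 at 131 FPKM in J2E-KLF3-ER and 20.3 FPKM in J2E and Mir3107 listed at 0 in J2E-KLF3-ER and 412 FPKM in J2E; neither was called, with q-values of 0.854 and 0.595 in the authors' deposited table. The span of Tmod1 is shared with Tstd2, at 23.2 FPKM in J2E-KLF3-ER and 25.9 FPKM in J2E, and how reads were split among overlapping genes is not given in the sources used here.

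The genes nearest to Ank1 in their pair of levels were Mcm5, a subunit of the replicative helicase, at 86.6 FPKM in J2E-KLF3-ER and 83.4 FPKM in J2E, Arglu1, at 86.3 FPKM in J2E-KLF3-ER and 82.5 FPKM in J2E, and Polr1b, a subunit of RNA polymerase I, at 88.8 FPKM in J2E-KLF3-ER and 86.4 FPKM in J2E. Their distances were 0.02, 0.03 and 0.06, and none was called. By level per length, the 10 genes ran in the order Add2, Actb, Actg1, Ank1, Lmna, Lmnb1, Tmod1, Myh9, Vim and Add1 in J2E-KLF3-ER, and Add2, Actb, Actg1, Ank1, Vim, Lmna, Lmnb1, Tmod1, Myh9 and Add1 in J2E. Vim alone left its place in that order, passing below Lmna, Lmnb1, Tmod1 and Myh9 in the clones. Which neighbours differ beyond the spread between libraries cannot be told from pooled values.

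**Figure D2:**
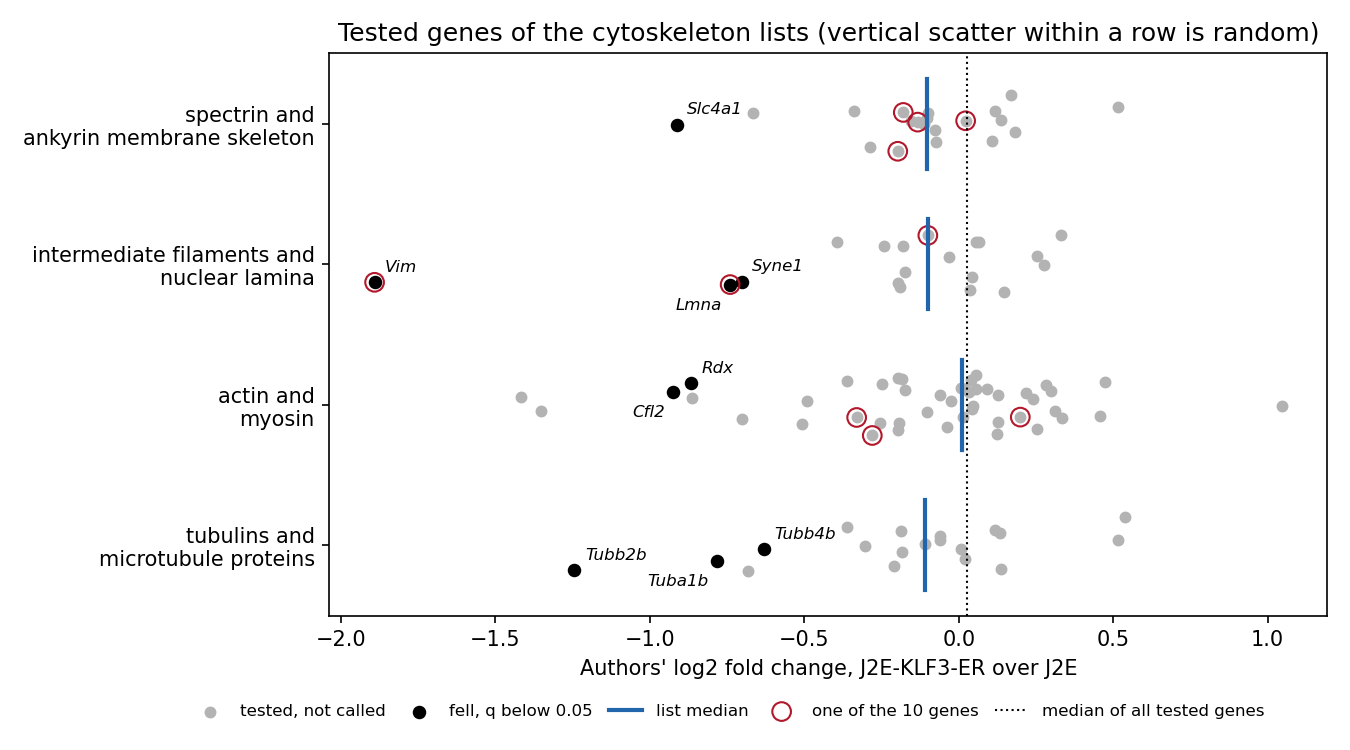
Authors' log2 fold change, J2E-KLF3-ER over J2E, of each tested gene in 4 cytoskeleton lists, with called genes in black, the 10 genes ringed, blue bars at the list medians and a dotted line at the median of all tested genes (0.03). All 9 called genes lie left of 0, and the list medians lie between -0.11 and 0.01.

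The wider lists of cytoskeleton genes showed the same kind of picture, a few falling genes among many not called. Over the 4 lists 104 genes were tested, of which 9 fell and 0 rose in the authors' deposited table, beside the shares of 1.90% and 0.821% over all tested genes. The lists share members with the 10 genes, which were chosen with results known, so these counts are a description.

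Of the intermediate filament and nuclear lamina list, 28 names gave 25 rows and 19 tested genes, with a median log2 fold change of -0.10. Vim, Lmna and Syne1 fell, and 16 genes were not called. Syne1, a nesprin that links the nuclear envelope to the cytoskeleton, was at 4.99 FPKM in J2E-KLF3-ER and 8.12 FPKM in J2E, with a log2 fold change of -0.70 and q = 0.0306 in the authors' deposited table. The 3 most abundant others were Tmpo, encoding the lamina-associated polypeptide thymopoietin, at 139 FPKM in J2E-KLF3-ER and 157 FPKM in J2E, the lamin B receptor gene Lbr, at 44.3 FPKM in J2E-KLF3-ER and 45.2 FPKM in J2E, and Banf1, a chromatin-bridging factor of the nuclear envelope, at 29.8 FPKM in J2E-KLF3-ER and 33.6 FPKM in J2E. In the authors' deposited table these had log2 fold changes of -0.18, -0.03 and -0.18.

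Of the actin and myosin list, 66 names gave 63 rows and 46 tested genes, with a median log2 fold change of 0.01, which becomes -0.02 when centred on the median of all tested genes. Rdx and Cfl2 fell, and 44 genes were not called. Rdx encodes radixin, which ties actin to the membrane, and was at 57.5 FPKM in J2E-KLF3-ER and 105 FPKM in J2E, with a log2 fold change of -0.87 and q = 0.0148 in the authors' deposited table. Cfl2, a filament-severing cofilin, was at 4.50 FPKM in J2E-KLF3-ER and 8.55 FPKM in J2E, with a log2 fold change of -0.92 and q = 0.0287 in the authors' deposited table. Its paralogue Cfl1, the more abundant of the pair, was at 75.7 FPKM in J2E-KLF3-ER and 69.4 FPKM in J2E, with a log2 fold change of 0.13 and q = 0.806 in the authors' deposited table. Tmsb4x, which encodes an actin monomer binding protein, was listed at 0 in both groups and was not tested.

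Of the tubulin and microtubule list, 28 names gave 26 rows and 19 tested genes, with a median log2 fold change of -0.11. Tubb4b, Tuba1b and Tubb2b fell, and 16 genes were not called. Tubb4b was at 158 FPKM in J2E-KLF3-ER and 245 FPKM in J2E, with a log2 fold change of -0.63 and q = 0.00995 in the authors' deposited table. Tuba1b was at 35.3 FPKM in J2E-KLF3-ER and 60.7 FPKM in J2E, with a log2 fold change of -0.78 and q = 0.00408 in the authors' deposited table. Tubb2b was at 3.76 FPKM in J2E-KLF3-ER and 8.91 FPKM in J2E, with a log2 fold change of -1.24 and q = 0.0168 in the authors' deposited table. All 3 are subunits of the microtubule itself; tubulin genes are closely related, so the split of reads between them is uncertain. The most abundant others were Tubb5, at 76.6 FPKM in J2E-KLF3-ER and 94.5 FPKM in J2E, the spindle factor gene Tpx2, at 52.3 FPKM in J2E-KLF3-ER and 51.6 FPKM in J2E, and Stmn1, a microtubule-destabilising protein, at 43.4 FPKM in J2E-KLF3-ER and 39.5 FPKM in J2E. None of these 3 was called.

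Of the spectrin and ankyrin membrane skeleton list, 26 names gave 23 rows and 20 tested genes, with a median log2 fold change of -0.10. Slc4a1, the band 3 anion exchanger to which ankyrin attaches, fell, and 19 genes were not called. Slc4a1 was at 20.8 FPKM in J2E-KLF3-ER and 39.2 FPKM in J2E, with a log2 fold change of -0.91 and q = 0.00408 in the authors' deposited table. Beside Add2 and Ank1, the most abundant other gene was Epb4.1, which encodes protein 4.1, at 70.0 FPKM in J2E-KLF3-ER and 75.2 FPKM in J2E (log2 fold change -0.10, q = 0.821 in the authors' deposited table).

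KLF3 peaks were assigned to 9 of the 10 genes, Tmod1 being the exception, and KLF1 peaks to all 10. Over all tested genes the shares with a peak were 32.3% for KLF3 and 19.1% for KLF1. In 7 of the 10 genes a KLF3 peak shared at least 1 bp with a KLF1 peak, beside 10.7% of all tested genes; Vim, Actg1 and Tmod1 had no such overlap. All 7 genes still had it when both peaks had to be covered by at least 50% or the summits had to lie within 100 bp.

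Positions below run along the gene's strand from the start site to which the authors assigned the peak, negative upstream, and enrichment is the authors' own ratio per peak, which is used only to place a peak within its own list. The median enrichment was 7.94 in the KLF3 list and 9.72 in the KLF1 list.

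**Figure D3:**
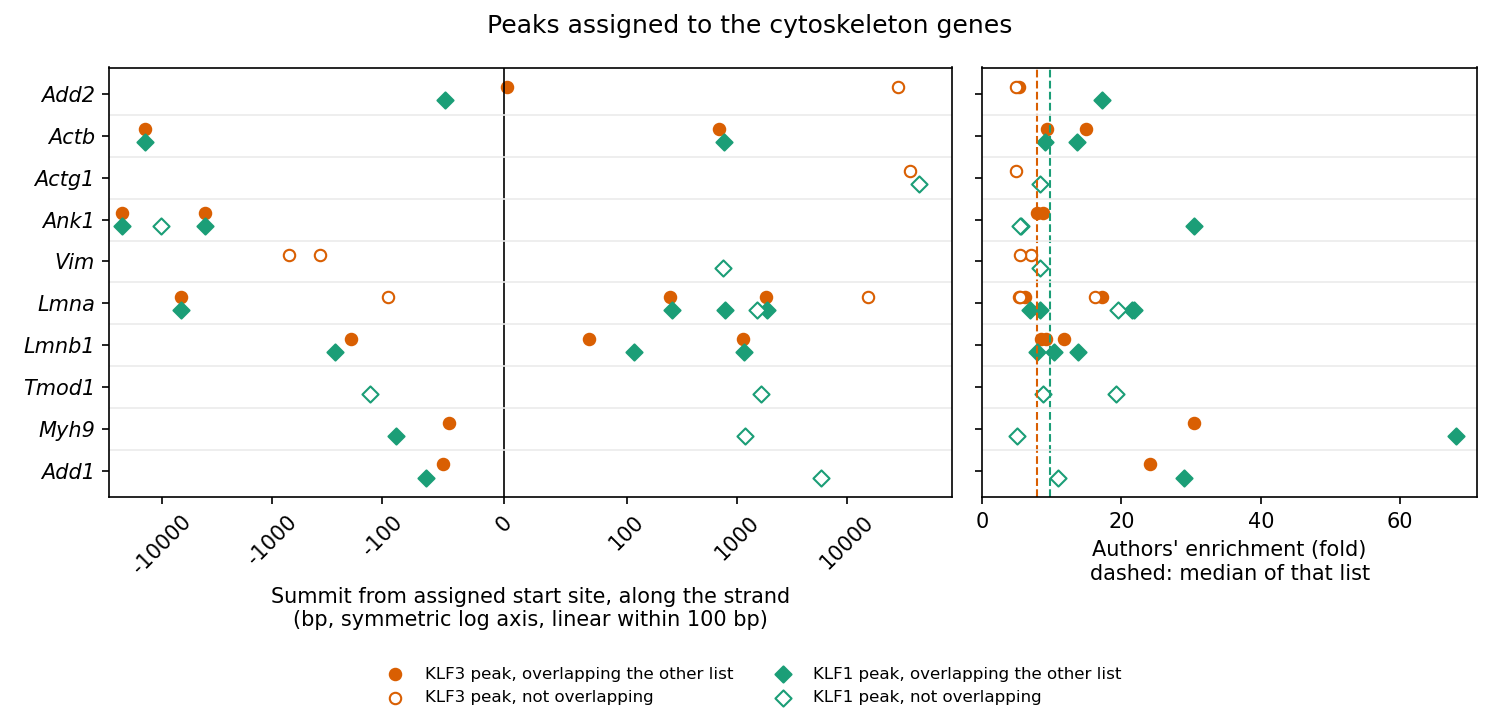
Left, summit position of each assigned peak from its start site along the gene's strand (bp, symmetric log axis), with KLF3 peaks as circles and KLF1 peaks as diamonds, filled where they overlap a peak of the other list; right, the authors' enrichment ratio with the list medians dashed. The strongest pairs lie within 100 bp upstream of the Myh9 and Add1 start sites, while the Vim peaks lie on either side of the start without overlap.

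Vim carried KLF3 upstream of its start and KLF1 inside the gene. The KLF3 interval chr2:13495145-13495658 held 2 summits in the promoter class, at -703 with an enrichment of 7.01 (rank 2868 of 4579) and at -369 with an enrichment of 5.46 (rank 3898). The KLF1 peak chr2:13496565-13496815 had its summit at +750, in an intron by the authors' class, with an enrichment of 8.37 (rank 2361 of 3800). The nearest KLF3 and KLF1 summits were 1119 bp apart. All 3 Vim enrichments lay below the median of their list. Vim had the lowest log2 fold change of the 10 genes, and a link between enrichment and RNA change was not tested.

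Lmna had the most assigned peaks of the 10, with 5 KLF3 peaks and 5 KLF1 peaks. Only 10 genes had at least 5 peaks in the KLF3 list, 22 had at least 5 in the KLF1 list, and 5 genes had both. Its RNA row starts at the upstream start site, and the authors assigned part of the peaks to a start site 10033 bp further inside. The strongest KLF3 peak, chr3:88296775-88297175, had its summit at +245 of that inner start with an enrichment of 17.2 (rank 354). It lay within the KLF1 interval chr3:88296249-88297304, which held summits at +783 and +255 with enrichments of 21.8 and 21.5, so the nearer summits of both factors were 10 bp apart.

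Other Lmna peaks were shared or belonged to 1 list. A KLF3 peak at +1847 of the inner start (chr3:88295254-88295489, enrichment 5.26) overlapped a KLF1 peak at +1874 (chr3:88295204-88295454, enrichment 6.87). A distal KLF3 peak 6769 bp upstream of the upstream start (chr3:88313875-88314186, enrichment 6.25) overlapped a KLF1 peak 6719 bp upstream of it (chr3:88313854-88314120, enrichment 8.37). Distal is the authors' class on mm9. The span of Lmna is 28785 bp in RefSeq against 22184 bp on mm9, and whether a further start lies nearer to this pair cannot be told from the spans. At the upstream promoter a KLF3 peak with an enrichment of 5.45 had its summit at -95 (chr3:88307193-88307372) and no KLF1 peak overlapped it. The KLF1 list held an intronic peak at +1538 of this start (chr3:88305565-88305872, enrichment 19.6) with no KLF3 counterpart, and the KLF3 list held a distal peak 3242 bp past the end of the row (chr3:88281693-88281931, enrichment 16.3, rank 425) with no KLF1 counterpart.

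Lmnb1, which was not called, was bound by both factors at the start and in an intron. Its KLF3 interval chr18:56867006-56867642 held summits at -191 and +69 with enrichments of 9.14 and 8.49. The KLF1 interval chr18:56866947-56867681 held summits at -268 and +117 with enrichments of 13.8 and 7.93. Inside the gene a KLF3 summit at +1140 (enrichment 11.7) and a KLF1 summit at +1163 (enrichment 10.3) were 23 bp apart.

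Actb, likewise not called, had paired peaks at 2 places. In its intron a KLF3 summit at +686 (chr5:143667500-143667907, enrichment 14.9) and a KLF1 summit at +766 (chr5:143667500-143667807, enrichment 9.10) lay 80 bp apart. Far upstream a KLF3 summit at -14155 (chr5:143682412-143682809, enrichment 9.41) and a KLF1 summit at -14164 (chr5:143682232-143682891, enrichment 13.6) lay 9 bp apart. Actg1 had only distant peaks, a KLF3 summit 37204 bp (chr11:120172488-120172670, enrichment 4.95) and a KLF1 summit 44659 bp (chr11:120164958-120165305, enrichment 8.40) downstream of its start. Both lie beyond the end of the gene, and the assignment to Actg1 rests on its being the nearest start site.

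Myh9 had the strongest promoter peaks of the 10 genes in both lists. The KLF1 peak chr15:77672342-77673086 had an enrichment of 67.9, rank 6 of 3800, with its summit at -89. The KLF3 peak chr15:77672373-77672988 had an enrichment of 30.4, rank 27 of 4579, with its summit at -45. A weaker KLF1 peak in an intron (chr15:77671288-77671497, enrichment 5.01, summit at +1192) had no KLF3 counterpart.

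Among the membrane skeleton genes, Add1 had the strongest KLF3 peak. Its promoter held a KLF3 peak with an enrichment of 24.1, rank 99 (chr5:34916122-34916451, summit at -50), and a KLF1 peak with an enrichment of 28.9, rank 223 (chr5:34916040-34916471, summit at -64). A further KLF1 peak lay in an intron at +5808 (chr5:34922039-34922306, enrichment 11.0). At Add2 both factors lay at a start site 49367 bp inside the row, with a KLF3 summit at +2 (chr6:86027951-86028131, enrichment 5.29) and a KLF1 summit at -49 (chr6:86027844-86028177, enrichment 17.3). Add2 also had an intronic KLF3 peak at +29295 of that start (chr6:86057247-86057432, enrichment 4.87).

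The Ank1 peaks were all intronic by the authors' class and were assigned to a start site 83393 bp inside the row. The strongest was a KLF1 peak 4100 bp upstream of that start (chr8:24164463-24164853, enrichment 30.5, rank 200), with a KLF3 summit 11 bp away (chr8:24164561-24164757, enrichment 8.71). Further upstream, a KLF3 peak with an enrichment of 7.90 (chr8:24145432-24145742) and a KLF1 peak with an enrichment of 5.60 (chr8:24145424-24145756) had summits 27 bp apart, and a KLF1 peak at chr8:24158529-24158738 (enrichment 5.52) stood without KLF3. Tmod1 had KLF1 peaks alone, at -128 (chr4:46051827-46052132, enrichment 19.2, rank 583) and at +1669 (chr4:46053636-46053908, enrichment 8.76).

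By class, 8 of the 19 KLF3 peaks were promoter peaks (42.1%), beside 66.5% of the whole KLF3 list, 7 were intronic and 4 distal. Of the 22 KLF1 peaks 5 were promoter peaks (22.7%), beside 31.6% of the whole KLF1 list, and 13 were intronic (59.1%), beside 37.3%. Overlap with the other list was found for 13 of the 19 KLF3 peaks (68.4%, beside 34.0% of the list) and 14 of the 22 KLF1 peaks (63.6%, beside 39.3%). Lmna alone gave 5 peaks to each count and some summits share an interval, leaving 17 distinct KLF3 and 20 distinct KLF1 intervals, and the differences from the whole lists were not tested.

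The 2 falling genes thus differed in how they were bound, Vim with a few unshared peaks below the list medians and Lmna with many, mostly shared ones. Myh9 and Add1, the genes with the strongest shared promoter peaks, were not called. Whether binding and RNA change go together was not tested. In the KLF3 list the authors marked Vim and Lmna as down and the other members present as no. All 92 tested genes with that mark also fell in the RNA table, so the mark repeats that result.

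The KLF1 list carries a mark from a comparison named K1vsK1ER, whose data were not used here and whose direction is not stated. It marked Lmna, Actg1, Myh9 and Add2 as up, 4 of 10 members, beside 14.0% of the 2773 genes in that list, where 387 were up and 16 down. None of the 10 was marked down and 6 were marked no, Vim, Ank1 and Tmod1 among them. Lmna was the member that carried both marks, down in the KLF3 list and up in the KLF1 list.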

How the data were processed

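RNA of 6 libraries (4sU-labelled) and chromatin of 4 libraries were analysed from the deposited tables. The RNA table holds, per the file headers, 1 FPKM value per group pooled by the authors, a log2 fold change (J2E-KLF3-ER over J2E), a p-value and a q-value. Each row of the deposited peak lists has an enrichment ratio, a summit, a class and the nearest start site. The submitters' processing notes name mm9 and the tools MACS 1.4.2, MACS2 and TopHat2 2.0.10, without saying what each was used for; the program behind the RNA test is not given in the sources used here.

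The members and lists were chosen with earlier results of these data known. The design allowed for values per library; as the table has none, the authors' q-value was used. Recomputing it by Benjamini-Hochberg from the p-values of the 9619 tested genes gave the same values to within 5.26e-07. Whether the 2 tamoxifen-treated J2E libraries were separate cultures is not in the labels. The third J2E library differed in treatment, and the J2E-KLF3-ER libraries came from different clones. The p-values cover only differences among these libraries, in which treatment, clone and technical differences cannot be separated. Depth is unknown. Named genes are the 10 members, the called genes and 3 most abundant others of each list, and the 3 genes nearest in level to Vim and Ank1, without unnamed models and small RNAs. In the RNA data 93 blank rows were dropped, and 13 gene entries of the KLF1 list that had become dates were read back. An overlap of peaks needed 1 shared bp. Alternatives were other q thresholds and adjustments, pseudocounts, centrings and peak criteria. Calculations used Python 3.11.15, pandas 2.3.3, NumPy 2.4.6, SciPy 1.17.1 and matplotlib 3.10.9, and the adjustment and overlap steps were tested on simulated data.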

Additional observations from a re-analysis of the deposited data

How the results depend on the processing

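For 22 results, 65 values were computed under alternatives; 58 kept their direction and call and stayed within a tolerance of 1.5 times for counts and 0.1 for log2 values, 5 passed that tolerance and 2 changed sign. Small log2 values can shift by much of their size within it, as Tmod1 did, at -0.07 centred on its chromosome in place of -0.13. The number of members called was 2 at q below 0.1 and over genes of at least 1 FPKM, and 1 (Vim) at q below 0.01, with at least 2-fold required, or with the Benjamini-Yekutieli adjustment, where q was 0.0397 for Vim and 0.145 for Lmna. Centred on the median of all tested genes (0.03), the log2 fold change of Ank1 was -0.00405 in place of 0.02 and the actin and myosin median was -0.0162 in place of 0.01; the centring shifts every gene by the same amount. Centred on its chromosome, Actg1 was at -0.38 and Myh9 at 0.06. KLF3 peaks were held by 7 members with the summit within 1000 bp, 8 within 10000 bp and 6 at or above the median enrichment; KLF1 peaks by 8, 9 and 8. No paired analysis was possible because the table holds 1 pooled value per group, and leaving out a library was not run for the same reason. The pooled values hide the spread between clones, and the effect of depth on these values cannot be computed.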

Other observations

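Of the 9 falling genes in the 4 cytoskeleton lists, 4 had peaks of both factors and 5 had a peak of neither. Among all 183 falling genes, 92 (50.3%) had a KLF3 peak, 75 (41.0%) a KLF1 peak, 61 (33.3%) both and 77 (42.1%) neither. Vim, Lmna, Slc4a1 and Tuba1b were the bound ones, Slc4a1 and Tuba1b with 1 KLF3 and 1 KLF1 peak each. Tubb2b, Cfl2, Rdx, Syne1 and Tubb4b had none assigned to them. Among all 104 tested genes of the lists, 61 had a KLF3 peak and 47 a KLF1 peak, beside 32.3% and 19.1% of all tested genes. No test was run on these counts, and a peak assigned to another, nearer start site would not be counted.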
